A study of Drosophila melanogaster with 2 samples.

Results

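The regions described here are the stretches of the X chromosome of Drosophila melanogaster that were enriched with a GFP-tagged Gsc protein in chromatin immunoprecipitation and sequencing (ChIP-seq). They are all regions of the main list of regions from both replicates that lie on the placed X arm, 298 of 1655 regions. They were set against the 1162 regions of the same list on the autosomal arms 2L, 2R, 3L, 3R and 4. The main list lacks 75 X regions of the ranked list behind it whose score was at or above its lowest, 830, and 73 of these lay in the 4 Mb next to the centromeric end. On the autosomal arms it lacks 54, of which 26 lay within 4 Mb of such an end. Results are given for the list as deposited, and with these regions added where that changes them, an alternative chosen after seeing the data. A further 185 regions on X contigs outside the arm and 10 on Y were left out. The study holds 1 group of 2 biological replicates: whole embryos of 0 to 24 h from transgenic flies of the strain Gsc-GFP, which carry a Gsc-eGFP fusion, precipitated with an antibody against GFP. Chromatin was sonicated to 200 to 800 bp, the sex of the embryos was not collected, and no untagged or input library was analysed here. Whole embryos of mixed stages were used, so a region present in few cells and a weak region in many cells cannot be told apart.

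Gsc is the fly homologue of Goosecoid, a homeodomain protein whose class recognises TAATCC-type words and which acts in the embryonic head and gut. The fly X is present as a single copy in males, where the MSL complex, guided by the noncoding RNAs roX1 and roX2, raises its transcription, and the dose of X-linked genes such as sisA and sc sets the sex through Sxl. Each region was placed by its summit, the point of highest signal. A summit within 500 bp of a protein-coding start site was called a promoter region, and any other summit took the first that fitted of 5' UTR, coding sequence (CDS), 3' UTR, intron and intergenic. A region was assigned to the protein-coding gene with the nearest start site.

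The 6 strongest X regions are shown to make plain what the list holds: AT-rich stretches around the summit, on the plus strand of dm6. Capitals mark a match to any of the 11 words searched, and the capitals here are TTTATG read on the other strand. Each line gives the 50 bp on either side of the summit, shortened for Ugalt to the part outside annotated UTRs.
Ugalt, chrX:2703853-2703926: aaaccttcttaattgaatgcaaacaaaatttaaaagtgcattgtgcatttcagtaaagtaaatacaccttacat
ph-p, chrX:2137308-2137408: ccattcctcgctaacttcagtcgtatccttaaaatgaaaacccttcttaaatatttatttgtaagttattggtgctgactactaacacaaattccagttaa
CG32772, chrX:4910304-4910404: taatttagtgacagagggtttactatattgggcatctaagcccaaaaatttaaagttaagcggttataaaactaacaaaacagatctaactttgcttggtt
CG3726, chrX:5918863-5918963: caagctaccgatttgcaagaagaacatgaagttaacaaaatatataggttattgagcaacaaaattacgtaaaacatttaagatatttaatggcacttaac
Tlk, chrX:3742182-3742282: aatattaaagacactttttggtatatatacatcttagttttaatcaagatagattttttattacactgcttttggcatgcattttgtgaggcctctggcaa
CG4004, chrX:12751361-12751461: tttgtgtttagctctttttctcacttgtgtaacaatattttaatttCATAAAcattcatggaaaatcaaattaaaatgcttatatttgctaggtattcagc

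The word ACAGTG is shown as well, since it was the one that differed most between the X and the autosomal regions within 100 bp of the summit. That is the alternative window. In the main window of 50 bp it was in 6.71% of X regions and 5.94% of autosomal regions and did not pass the test. The lines give the 6 strongest X regions that hold it there with no annotated UTR in the stretch, with the word in capitals and read on the strand that spells it.
CG4004, chrX:12752381-12752416, plus strand: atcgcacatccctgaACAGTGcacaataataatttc
org-1, chrX:8455335-8455370, plus strand: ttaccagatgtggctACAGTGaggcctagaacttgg
norpA, chrX:4325050-4325085, minus strand: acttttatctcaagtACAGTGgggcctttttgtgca
Raf, chrX:2297781-2297816, minus strand: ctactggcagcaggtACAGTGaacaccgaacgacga
NFAT, chrX:13640420-13640455, plus strand: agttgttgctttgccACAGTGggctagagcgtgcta
bbx, chrX:21367707-21367742, plus strand: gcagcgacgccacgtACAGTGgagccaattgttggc

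The strongest X region lay 24 bp from the start site of Ugalt, which codes for a UDP-galactose transporter, with a signal of 1323 in the list and of 646 in replicate 1 and 680 in replicate 2. The next was in an intron of ph-p, a Polycomb group gene, 503 bp from the start site, at 1090 in the list, 602 in replicate 1 and 506 in replicate 2. The gap below this pair is wide. An intronic region of CG32772 had a signal of 669 in the list, 311 in replicate 1 and 353 in replicate 2, and one of CG3726 had 658 in the list, 336 in replicate 1 and 328 in replicate 2. Tlk, the gene of the kinase Tousled-like kinase, had an intronic region at 557 in the list, 298 in replicate 1 and 257 in replicate 2.

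CG4004 had neighbouring intergenic regions at 506 and 475. LPCAT, a lysophosphatidylcholine acyltransferase gene, had an intronic region at 495. The last 4 of the 12 strongest were promoter regions: MFS10, a transporter gene of the major facilitator superfamily, at 442, the T-box gene org-1 at 429, the bZIP factor gene Atf3 at 399.6 and TRAM at 392. Each of the 12 overlapped a region in both replicates' thresholded lists, as did 43.6% of all regions on the arms. A second region of ph-p, at 372, lay 478 bp from a start site.

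Introns held more of the X regions than of the autosomal ones, and coding sequence held none of the X regions. On X, 145 of 298 regions (48.7%) were intronic, against 366 of 1162 (31.5%) on the autosomal arms, a difference of 17.2 points (95% interval 10.9 to 23.4, two-sided Fisher's exact test with Benjamini-Hochberg adjustment over 6 classes, adjusted p = 3.8e-07). The intronic share lay between 29.6% on 2L and 34.6% on 2R over the 4 autosomal arms that held regions, all below X. Intergenic sequence held 48 X regions (16.1%) and 303 autosomal ones (26.1%), a difference of −9.97 points (−14.5 to −4.76, exact adjusted p = 0.00051). In the CDS lay 0 of 298 X regions, where 3 counts, the limit that a count of 0 allows, are 1.01% and the upper 95% Wilson limit is 1.27%, and 50 autosomal regions (4.30%), with 3.79% to 4.64% on each arm (exact adjusted p = 5.0e-05).

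With the absent ranked regions added, the intronic difference was 7.46 points (two-sided Fisher's exact test, adjusted p = 0.0165). The intergenic one turned to 5.67 points, with 33.0% on X and 27.3% on the autosomal arms, and did not pass (exact adjusted p = 0.0544).

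Promoters held 100 X regions (33.6%) and 432 autosomal ones (37.2%), and this difference of −3.62 points did not pass the test (−9.47 to 2.56, exact adjusted p = 0.303). The 5' UTR held 2 X regions and 6 autosomal ones, and the 3' UTR held 3 X regions and 5 autosomal ones. The autosomal CDS regions were weak, with a median signal of 64.9. In the stronger 50% of the list the CDS difference was −0.18 points, and it did not pass the test in either replicate's own list. In the same 3 lists the promoter difference was −9.51 points (replicate 2's list), −10.4 (replicate 1's) and −11.6 (the stronger 50%) and passed the test, as did that with the absent regions added (−9.37 points).

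**Figure D1:**
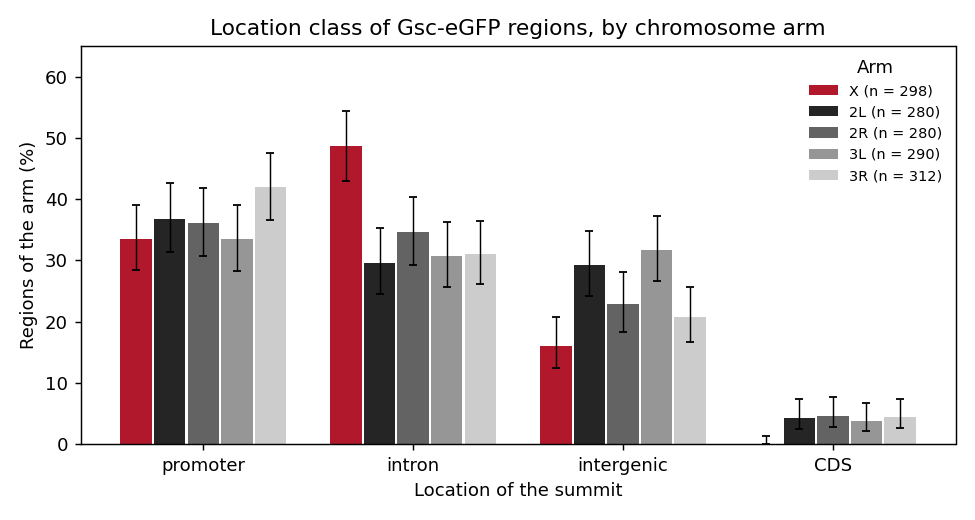
Share of regions (y axis, %) whose summit lay in each location class (x axis), for X and the 4 autosomal arms with regions; bars are shares and lines 95% Wilson intervals. The X bar is the highest for introns (48.7% against 29.6% to 34.6%) and, in the list as deposited, the lowest for intergenic sequence (16.1%) and CDS (0).

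The sequence available on X differed far less for introns and CDS. Candidates are the weaker regions of the ranked list behind the main list that lie below its threshold and overlap none of its regions. Of the candidates, 40.2% on X and 37.5% on the autosomal arms were intronic, and so were 41.2% of X positions and 38.9% of autosomal positions sampled every 100 bp. CDS held 19.8% of X candidates and 19.1% of autosomal candidates. Intergenic sequence was already lower on X, with 28.7% of X candidates and 32.6% of autosomal candidates. It held 26.8% of X positions and 30.7% of autosomal positions.

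The 145 intronic X regions lay in 94 host genes, and in 82.1% of them the nearest start site was that of the host, against 76.8% of autosomal intronic regions. The host genes had a median length of 34.5 kb on X and 34.9 kb on the autosomal arms, where all protein-coding genes had medians of 2.52 kb and 2.10 kb. Long genes offer more intronic sequence for a summit to fall in, so this contrast does not test a preference for long genes. The median distance of an intronic region from the nearest start site was 2578 bp on X and 3782 bp on the autosomal arms. CG1677 held 9 intronic regions, with signals between 67.3 and 209.8, all in the densest 100 kb of the arm. Raf, the kinase that links Ras to the MAP kinase cascade, held 7 between 62.2 and 357, and the nuclear receptor gene Hr4 held 7 between 74.0 and 260.3. The cell adhesion gene kirre held 6 and the forkhead gene CHES-1-like 5. With only the strongest region of each nearest gene kept, an alternative chosen after seeing the data, 42.6% of 209 X regions and 29.4% of 914 autosomal regions were intronic (two-sided Fisher's exact test, adjusted p = 0.0011), while the intergenic difference no longer passed the test (−6.50 points, exact adjusted p = 0.0708).

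X promoter regions also differed in their surroundings, a comparison made after the values were seen. Of the 100 X promoter regions, 23 (23.0%) had start sites on both strands within 500 bp, as at head-to-head gene pairs, against 193 of 432 (44.7%) on the autosomal arms. The difference was −21.7 points (−30.2 to −11.4, two-sided Fisher's exact test, p = 6.6e-05), and it also passed the test in either replicate's own list (−25.7 points in replicate 2's, −21.7 in replicate 1's). The share was 34.7% on 2R and between 46.4% and 50.5% on the other 3 arms. Protein-coding genes as a whole differed little here: 36.2% of X genes and 37.0% of autosomal genes had a start site of a gene on the opposite strand within 1000 bp.

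Signal was somewhat higher in the X regions, and the difference did not hold in every list. The median signal was 105.5 on X (quartiles 79.0 and 181) and 95.2 on the autosomal arms (70.5 and 154), with 88.9 to 98.9 on the single autosomal arms. In the replicates' own lists the same regions had medians of 61.4 on X and 53.6 on the autosomal arms in replicate 1, and of 54.1 on X and 47.0 on the autosomal arms in replicate 2. Above the median of the list lay 166 X regions (55.7%) and 564 autosomal ones (48.5%), a difference of 7.17 points (two-sided Fisher's exact test, p = 0.0320). It did not pass the same exact test in the conservative list (exact p = 0.0863), in replicate 1's own list (1.39 points) or in replicate 2's own list (4.80 points).

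By class, promoter regions had medians of 125.7 on X and 126.9 on the autosomal arms, and all other regions 100.8 on X and 83.7 on the autosomal arms. Intronic regions stood at 100.7 on X and 88.3 on the autosomal arms, and intergenic ones at 95.8 on X and 87.1 on the autosomal arms. Among non-promoter regions the share above the list's median was higher on X by 13.1 points, and among promoter regions it was lower by 1.89 points. The difference between these was not tested. With the list cut by signal into 4 equal parts, the lowest held 48 X regions (16.1%) and 317 autosomal ones (27.3%). In the highest, 44.0% of X regions and 59.1% of autosomal regions were promoters.

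The candidates ran the other way. Their median signal was 17.5 on X and 20.4 on the autosomal arms, with 20.2 to 20.5 on 2L, 2R, 3L and 3R, a ratio of X to autosomal arms of 0.857. All regions in the ranked lists of the replicates gave ratios of 0.876 in replicate 1 and 0.882 in replicate 2, while the regions of the main list gave 1.11.

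**Figure D2:**
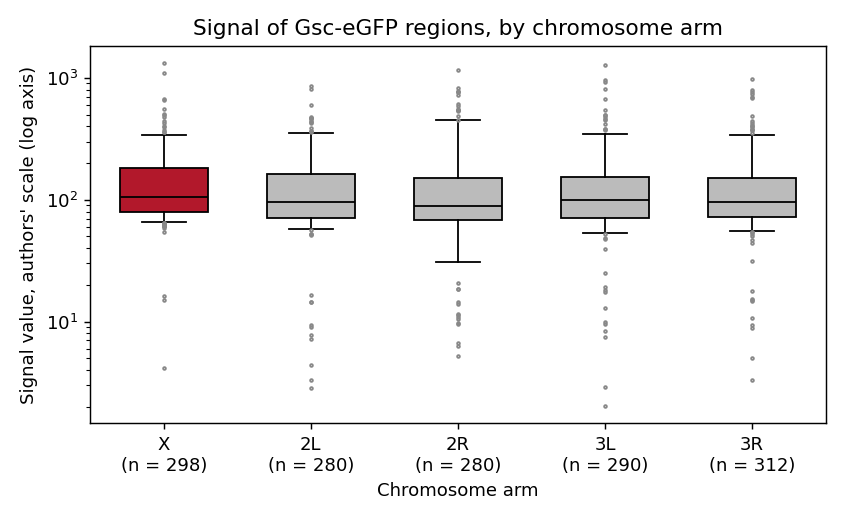
Signal of the regions (y axis, log scale, the authors' unit) by chromosome arm (x axis); boxes give quartiles and median, whiskers the central 90% of regions, and dots the regions beyond. The X median (105.5) is above the medians of the other arms (88.9 to 98.9), and few X regions lie at the low end.

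X regions of the list as deposited were found again more often in the replicates. Of these, 150 of 298 (50.3%) overlapped a region in both replicates' own lists, against 487 of 1162 (41.9%) on the autosomal arms, a difference of 8.43 points (2.10 to 14.7, two-sided Fisher's exact test, p = 0.0106). The autosomal arms ran from 38.9% on 2R to 45.4% on 2L. With the absent ranked regions added, 150 of 373 X regions (40.2%) and 487 of 1216 autosomal regions (40.0%) were in both lists, since none of those added was. Adding regions that are not in both lists can only lower a share. More were added on X (75) than on the autosomal arms (54), so this alternative does not test the difference. In neither replicate's list lay 59 X regions (19.8%) and 343 autosomal regions (29.5%). Among the stronger 50% of the list, 146 of 166 X regions (88.0%) and 455 of 564 autosomal regions (80.7%) were in both lists.

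For 286 X regions both replicates gave a value. A region overlapped by a stronger one can take its value from the same region of a replicate's list, and 4 X and 49 autosomal regions were so overlapped. Without them, the values of 282 X regions had a Spearman rho of 0.784 across regions, as a description of regions that share the same pair of libraries, and those of 1065 autosomal regions 0.739. Replicate 2 over replicate 1 then had a median log2 ratio of −0.21 on X and −0.25 on the autosomal arms, with an SD over regions of 0.48 on X and 0.54 on the autosomal arms. More than 2-fold apart were 21 X regions (7.45%) and 92 autosomal ones (8.64%).

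The X regions that differed most were weak. A promoter region of the hexokinase gene Hex-A had 65.4 in replicate 1 and 19.9 in replicate 2, a log2 ratio of −1.71. Intronic regions of OtopLa, of the otopetrin proton channel family, and of Pits followed at −1.42 and −1.31. In the other direction stood intronic regions assigned to Diedel3 and CG43658, at 1.23 and 1.17. The highest ratio, 2.43 at the promoter of prage, is no difference of 1 region between replicates: its value in replicate 2, 105.4, is that of the stronger region which overlaps it.

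**Figure D3:**
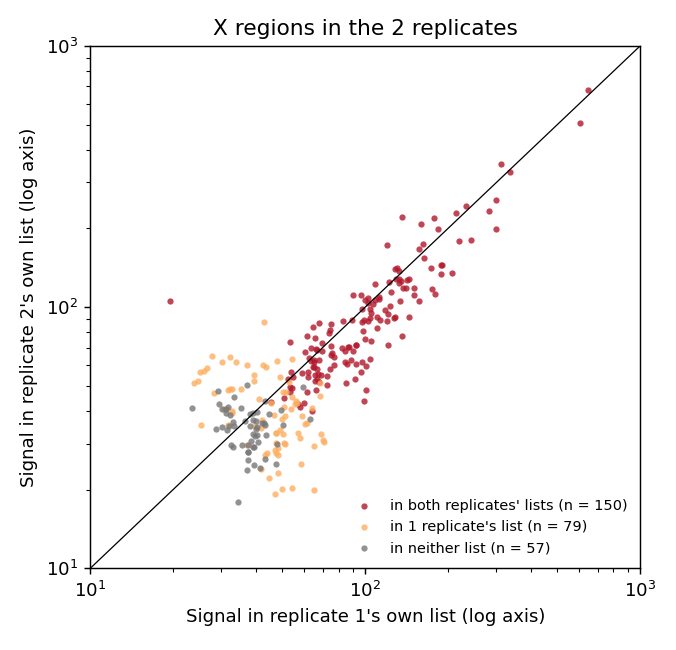
Signal of the X regions in replicate 1's own list (x axis) and replicate 2's own list (y axis), both on log axes in the authors' unit; each point is 1 of 286 regions, coloured by the thresholded lists it overlaps, and the line marks equal values. Points in both lists fill the upper range along the line, and the point that stands apart above it, at 19.5 and 105.4, is the overlapped region of prage, which takes its replicate 2 value from a stronger neighbour.

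X carried the most regions for its length. It held 12.7 regions per Mb, against 10.5 on the autosomal arms together and 11.9, 11.1, 10.3 and 9.73 on 2L, 2R, 3L and 3R. Arm 4 held none. Per 1000 protein-coding genes there were 136 on X and 98.9 on the autosomal arms. Of all ranked regions on these arms, 1.25% were in the main list, and the share was 1.45% on X (1.30% to 1.62%) and 1.21% on the autosomal arms (1.15% to 1.28%), with 1.41% on 2L.

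The median distance between neighbouring summits was 31072 bp on X (95% interval 23738 to 39410) and 39042 bp on the autosomal arms (34527 to 47178), intervals that overlap. Joined where summits lay within 10 kb of each other, the X regions formed 203 runs, of which 143 were single regions, 42 pairs and 18 runs of 3 or more that held 71 regions together. The densest 100 kb held 10 summits between 7292092 and 7337051, assigned to unc-119, brk, Atg5, Dok and CBP, with a median signal of 141. Only 1 of these was a promoter region, that of CBP at 293. The gene brk, a repressor of Dpp targets in the early embryo, had regions at 155 and 67.3.

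**Figure D4:**
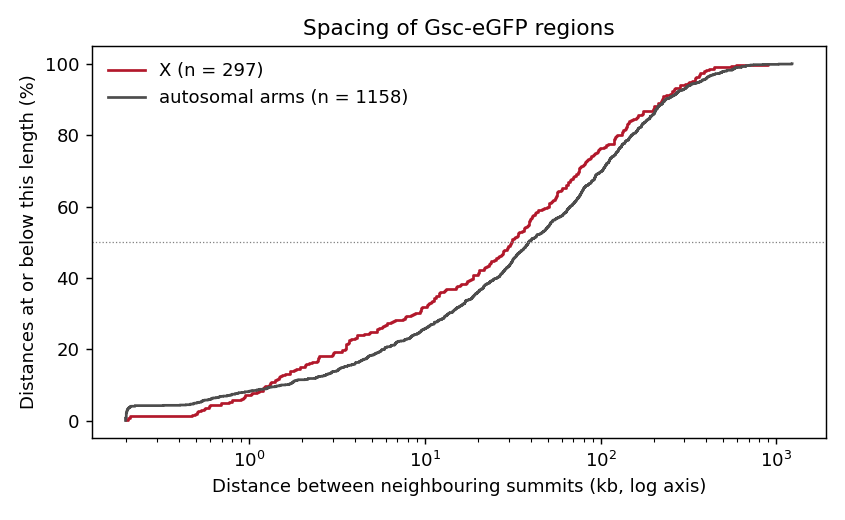
Cumulative share (y axis, %) of distances between neighbouring summits (x axis, kb, log scale) on X (297 distances) and on the autosomal arms (1158 distances). The X curve reaches 50% at 31.1 kb and the autosomal curve at 39.0 kb.

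In the deposited list the distal part of X was denser than the part next to the centromere. Counts per Mb ran from 1 to 30 with a median of 12, and the fullest Mb, from 2 to 3 Mb, held 30 regions beside 126 protein-coding genes. The distal 11.8 Mb held 200 regions and the proximal 11.8 Mb held 98, a ratio of 2.04, with 1127 genes in the distal part and 1069 in the proximal part. The autosomal arms were denser distally too, with ratios of 2.15 on 2L, 1.43 on 2R, 2.58 on 3L and 1.36 on 3R, where the distal part also held 1.29 to 1.79 times as many genes, against 1.05 on X. With the absent ranked regions added, X held 202 distal and 171 proximal regions, a ratio of 1.18, and the autosomal ratios were 2.12 on 2L, 1.35 on 2R, 2.49 on 3L and 1.19 on 3R. Median signal was 106.6 in the distal and 104.6 in the proximal part of X.

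The longest distance, 895892 bp, ran from a region at 21937835, assigned to CG40813, to one of CG42346 at 22833727, across 39 protein-coding genes. CG40813 itself starts at 22143058, inside this stretch. The next were 589838 bp between Sclp and mdu and 554402 bp between upd1 and shop. The first summit of the arm lay at 493992, at CG17896, and the last at 23152199, at ATbp. With the absent ranked regions added, the longest distance on X was that of 589838 bp, the median was 18.8 kb and X held 15.8 regions per Mb. The strongest absent X region had a signal of 1509, above that of Ugalt, so rank and spacing here are those of the deposited list. Just inside the threshold of the list lay, among others, regions of CG43759 (61.3) and LPCAT (54.1), and just outside it regions nearest to chas (50.4), Nost (67.5) and PsGEF (78.4).

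Of the 2196 protein-coding genes on X, 209 (9.52%) were nearest to at least 1 region, against 914 of 11749 (7.78%) on the autosomal arms and 8.05% over all of these arms. Several regions fell to 54 of the X genes (25.8%) and to 166 of the autosomal genes (18.2%). DIP1, which codes for a double-stranded RNA-binding protein, had most with 8, none inside the gene and 7 in sequence with several places in the genome. Their summits lay from 21713628 to 21769969, away from the gene, which spans 21624796 to 21630148. Hr4 had 7, all inside the gene, CHES-1-like 6, Raf 5, and Tlk and unc-119 4 each.

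Sequence of X regions in the deposited list was mostly single. In 10 X regions (3.36%) and 62 autosomal regions (5.34%) the sequence within 50 bp of the summit matched several places in the genome, at 90% identity over 80% of the length. All 10 on X lay in the 4 Mb next to the centromeric end. The absent ranked regions, of which 73 of 75 on X lay in the same 4 Mb, were not searched in this way.

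Counts over X-linked gene lists are descriptions beside the 9.52% of all X genes. In dosage compensation, no region was assigned to mof, the acetyltransferase of the MSL complex. The nearest region to roX1 was 5930 bp away with a signal of 134.7, and that to roX2 124493 bp away. Sxl, sisA and sc, with nearest regions at 19900, 29179 and 96495 bp, had none assigned. Of 6 genes that set or read the X dose 1 (16.7%) was nearest to a region, upd1, a ligand of the JAK/STAT pathway, at 87.7. That region was intergenic, 13995 bp from the start site of upd1 and outside the gene. None of the 4 genes of the achaete-scute complex had a region.

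Of 15 X-linked patterning genes 7 were nearest to a region (46.7%). They were sgg, the fly GSK3 kinase, at 221, the glycosyltransferase gene egh at 210.3, brk at 155, sog, an antagonist of Dpp, with 3 regions up to 102, and the homeodomain genes ct and oc at 101.6 and 100.4, besides upd1. The receptor gene N was nearest to none, but a region of 226 assigned to a neighbour lay inside it. The listed homeobox genes with a region included ct, oc and Lim1, which had 3 up to 106.6. The region of oc lay 6072 bp from its start site, with 69.9 in replicate 1 and 30.8 in replicate 2. The strongest region of ct had 40.7 in replicate 1 and no value in replicate 2.

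Among 12 neural and glial genes 5 had a region. The promoter of moody, a receptor of the blood-brain barrier glia, stood at 304 in the list, 164 in replicate 1 and 154 in replicate 2. The promoter of elav, the neuronal RNA-binding protein gene, stood at 270.2, kirre at 239, fne at 71.2 and sdt at 66.4. Of 13 chromatin regulators 2 (15.4%) were nearest to a region, ph-p and its neighbour and paralogue ph-d, at 205.3. A region of 60.9 assigned to the neighbouring gene CG12096 lay 124 bp from Bap60, another of the 13. Of 4 ecdysone response genes Hr4 had regions, and a region of 96.5 assigned to a neighbour lay inside br. Of 6 abundantly transcribed genes 2 were nearest to a region, Act5C at 207 and Zw at 212.5, and of 14 ribosomal protein genes none.

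Words were searched on either strand, and none of 11 differed between X and autosomal regions within 50 bp of the summit. TAATCC was in 3.69% of X regions and 3.70% of autosomal regions, beside 2.76% of X candidates and 2.92% of autosomal candidates. TAATTA was in 9.73% of X regions and 7.49% of autosomal regions (two-sided Fisher's exact test, adjusted p = 0.630). CAGGTA was in 3.69% of X regions and 1.46% of autosomal regions, with an unadjusted exact p of 0.0179 and an adjusted p of 0.197. TTTATG was in 14.4% of X regions and 11.2% of autosomal regions. The E box CATATG, the word GGTCACACT, the pair TATCGATA with its core CGATA and the pair GAGAGAGA with its core GAGAG did not pass either.

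Within 100 bp, the alternative window, ACAGTG was in 93 X regions (31.2%) and 231 autosomal regions (19.9%), beside 8.45% of X candidates and 8.06% of autosomal candidates. The adjustment here is over the words of this window and not over both windows. The difference between X and autosomal regions was 11.3 points (two-sided Fisher's exact test with adjustment over 11 words, p = 0.00050), and the shares of the autosomal arms ran from 17.5% to 22.4%. TTTATG was in 27.9% of X regions and 20.1% of autosomal regions (exact adjusted p = 0.0253), beside 16.4% of X candidates and 18.1% of autosomal candidates. No other word passed. The ACAGTG difference kept its size in replicate 2's own list and in the stronger 50% of the list (10.4 and 11.2 points) but did not pass the test there (exact adjusted p = 0.0549 and 0.0545). With the absent ranked regions added it was smaller, at 8.39 points (27.9% on X and 19.5% on the autosomal arms), and passed the test.

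The word stood more often beside the summit than at it. The centre of its nearest match lay 48 to 98 bp away in 24.5% of X regions and 13.9% of autosomal regions, and closer in 6.71% of X regions and 5.94% of autosomal regions. From 148 to 198 bp the shares were 3.02% for X regions and 3.10% for autosomal regions, beside 3.42% of X candidates and 3.44% of autosomal candidates. By class, 35 of 100 X promoter regions (35.0%) and 77 of 432 autosomal ones (17.8%) held it within 100 bp. Intronic regions stood at 30.3% on X and 26.0% on the autosomal arms, and intergenic regions at 20.8% on X and 17.8% on the autosomal arms. X regions with the word had a median signal of 124 and those without it 101.5, and 54.8% of those with it and 48.3% of those without it were in both replicates' lists. A match is a run of letters and says nothing about which protein reads it. The median GC content within 50 bp of the summit was 32.7% on X and 33.7% on the autosomal arms, against 48.5% in the candidates of both.

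**Figure D5:**
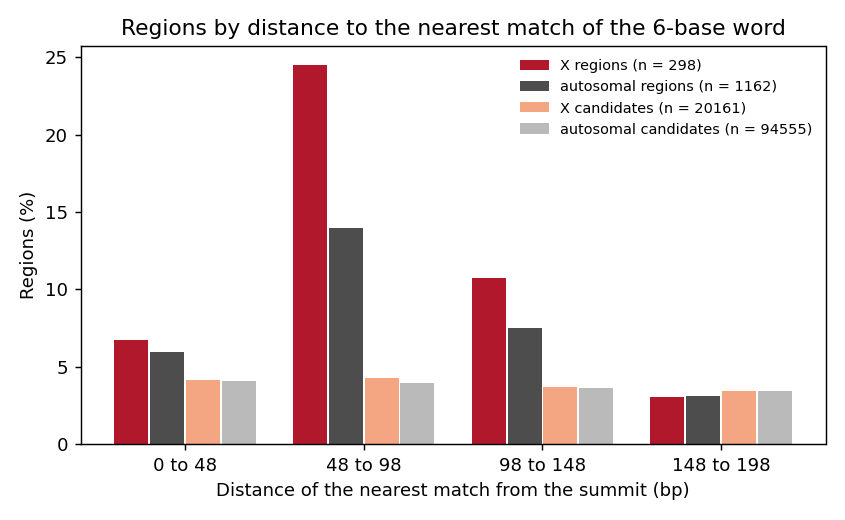
Share of regions (y axis, %) by the distance in bp from the summit to the nearest match of the 6-base word named in the text (x axis), for X regions, autosomal regions and the candidates of each. The X bar at 48 to 98 bp reaches 24.5% and the autosomal bar 13.9%, while the candidates stay between 3.42% and 4.30% at every distance.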

How the data were processed

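Gsc-eGFP ChIP-seq was done on 2 biological replicates of whole embryos. Per the labels, coordinates are on dm6. Not given in the sources used here are the aligner, the peak caller and the unit of the signal. Ranked lists and lists thresholded on the irreproducible discovery rate (IDR) were deposited per replicate and for the pair. The deposited signal of a region was used only to rank and describe regions within a list. The deposited score is their scaled IDR, with a lowest value of 830 in the main list, where the deposited −log10 IDR was 2.00. In the ranked lists for the pair, 16 unnamed columns tied to no replicate were left out. The files hold no reads, so depth is unknown. Nothing in the labels says whether the replicates came from separate collections beyond calling them biological.

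Sequence was read from the Release 6 genome, and genes from Ensembl release 115. Replicate values were those of the longest-overlapping region in each replicate's own ranked list. Shares were compared by two-sided Fisher's exact tests (SciPy 1.17.1, pandas 2.3.3, Python 3.11.15) with Benjamini-Hochberg adjustment within a family and a threshold of 0.05, with 95% Wilson or Newcombe intervals. Repeated sequence was searched with BLAST+ 2.17.0. The tests were tested on simulated data. Regions are not replicates and neighbouring regions share a gene, so p-values and intervals cover counting error over regions only, and say nothing of the spread between embryos.

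The members, tests and gene lists were chosen with earlier results of these data known. ACAGTG had been singled out in the whole list. Of 90 listed gene entries, 3 were not on X and were dropped, and 5 were matched by synonym. The result of 1 listed gene is not reported here. Named genes are those nearest to the 12 strongest regions, those with most regions, those at the longest and shortest spacings, the extremes between replicates and listed genes with a region. Comparisons of start sites on both strands, host genes, parts of arms and distances of ACAGTG were made after the values were seen. Alternatives were the conservative list, each replicate's list, subsets of regions, the list with the absent ranked regions added, another promoter window, gene set, overlap and word window.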

Additional observations from a re-analysis of the deposited data

How the results depend on the processing

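The intronic and both-strand differences between X and the autosomal arms passed the test under every alternative tried for them. Of 213 alternatives with a test, 174 kept direction and side of the threshold. Many of the 213 concern words and classes that did not pass in the full list. The count is thus no measure of how stable the differences that passed are. With the ranked regions absent from the list added, the difference in both replicates was 0.17 points and no longer passed. None of the added regions was in both lists, so they could only lower these shares, more so on X, and do not test this difference. With them added, the intergenic difference was 5.67 points, the promoter one −9.37 points, past the threshold, and the median distance between X summits 18.8 kb. The share of promoter regions, not past it in the full list, was lower on X by more in the lists without replicate 1 and without replicate 2 (−9.51 and −10.4 points), in the stronger 50% of regions (−11.6) and with a 200 bp window (−8.13), and passed the test there. The CDS difference was −0.92, −1.20 and −0.18 points without replicate 1, without replicate 2 and in the stronger 50%. The intergenic difference was −7.88 points in the stronger 50% and −6.50 with 1 region for each nearest gene, short of the threshold in both. The share above the median signal ranged from 1.39 to 4.80 points when a replicate was left out, was 5.71 for the conservative one, 6.06 with 1 region where regions overlap, 6.24 without the 4 Mb at centromeric ends and 7.40 with 1 region for each nearest gene, all short of the threshold, and −1.89 in promoter regions only. ACAGTG within 100 bp ranged from 10.4 to 11.3 points with a replicate left out, and was 11.2 in the stronger 50%. It was lowest with the absent ranked regions added (8.39 points) and highest with 1 region for each nearest gene (13.8 points). The median distance between X summits, 31.1 kb, was 54.9 kb and 39.1 kb without replicate 1 and without replicate 2, 58.9 kb in the stronger 50% and 62.8 kb with 1 region for each nearest gene, lists that hold fewer regions. On the autosomal arms the medians of these lists were, in the same order, 77.4, 62.2, 100.3 and 68.7 kb. With the absent ranked regions added the autosomal median was 37.6 kb. The intergenic difference changed sign, and so did the share above the median signal in promoter regions only (−1.89). Both had passed the test in the full list. The other changes of sign were among differences that passed no test. They were the 5' UTR (−0.040 points, conservative list), TAATTA (−0.22, stronger 50%), GGTCACACT (0.077, window of 100 bp) and GAGAGAGA (−0.22, 1 region for each nearest gene). GAGAG was 0.43 and −3.57 without replicate 1 and without replicate 2, and −0.16 without centromeric ends. CGATA was −2.31 in the list called conservative, −0.90 and −1.83 without replicate 1 and without replicate 2, −0.37 with 1 region where regions overlap and −0.59 with 1 for each nearest gene. TAATCC, at −0.0092, was −0.74 and 1.32 without replicate 1 and without replicate 2, 0.24 with 1 region where regions overlap, 0.34 without centromeric ends, 0.0013 with 1 place in the genome only and 0.59 with 1 for each nearest gene. The cause of these changes was not tested. The subsets of 1 place in the genome and of 1 region for each nearest gene, and the added regions, were chosen after seeing the data. No paired analysis was possible because the study has 1 group.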
